A study of Mus musculus with 6 samples.

Results

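The nuclear genes that encode subunits of the mitochondrial respiratory chain and ATP synthase were followed in basal prostate cells with and without the s-SHIP reporter. They were chosen by gene name, as the array design prints it. Names for complex I were Nduf with a letter a, b, c, s or v and a number. Those for complex II were Sdh with a letter a to d, and those for complex III began with Uqcr. Complex IV took Cox4 to Cox8 with a subunit letter, and complex V took Atp5 with a letter a to l. The names matched 79 of 36163 gene names and 114 of 55681 probes on the array. Complex I had 37 genes, complex II 4, complex III 8, complex IV 16 and complex V 14.

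The cells came from prostates of male FVB/N Tg 11.5kb-GFP mice, 6 days old and untreated, in which GFP is driven by the promoter of s-SHIP, an isoform of the SHIP1 phosphatase found in stem cells. Cells negative for the lineage antigens Ter119, CD31 and CD45 and positive for Sca-1 and CD49f, called LSC cells, were sorted by flow cytometry into LSC GFP+ and LSC GFP-, so both populations carried the transgene and passed the same gates. The same promoter is also active in some vascular smooth muscle cells of these mice. The paper reports little or no Sca-1 and CD49f on these GFP-bright cells, the markers that the LSC gate required. Each population was measured in 3 independent samples, 1 array per sample, after whole-transcriptome amplification of the RNA and Cy3 labelling. All 6 arrays were on 1 slide and in 1 scan. The comparison asks whether basal cells with an active s-SHIP promoter differ from other basal cells.

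Complex I takes electrons from NADH and complex II from succinate, and both hand them to ubiquinone. Complex III passes them to cytochrome c and complex IV from there to oxygen, and complex V makes ATP from the proton gradient that complexes I, III and IV build. Most subunits are encoded in the nucleus, but the mitochondrial genome encodes some core subunits of every complex except complex II, so the chain needs products of both genomes. Shifts between glycolysis and respiration have been studied in many stem cells.

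Signals were read on the log2 scale relative to the 75th percentile of each array, so a value of 0 is the brightness of that percentile and a difference of 1 is a doubling. Levels of different probes cannot be set against each other. Probes well above background numbered 36651 to 42123 per array, no spot was saturated, and the arrays correlated with each other at 0.961 to 0.985. Probes entered the tests where every array of either population, or of both, was marked well above background. This kept 36990 probes in all, with 111 of the 114 subunit probes and 76 of the 79 genes. All 76 were above background on all 6 arrays, so none passed through one population alone. The 3 genes left out were Cox7b2 and Cox8c, above background on no array, and Cox8b, above it on 1 of 6. A gene with several probes was read at its brightest one.

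No subunit of the respiratory chain passed the test between LSC GFP+ and LSC GFP- cells, and the estimated differences were small. By limma with no adjustment, 0 of the 76 passed a p of 0.05 upward and 0 downward in LSC GFP+ relative to LSC GFP-, where 3.38% of all probes passed upward and 4.53% downward. After Benjamini-Hochberg adjustment 0 subunits passed, and 0.0027% of all probes, a single probe, did. The lowest p among the 76 was 0.203, with an adjusted p of 0.913 in limma, for Cox7a1. The methods' t-test also called 0 of them, beside 7.56% of all probes. The median difference, LSC GFP+ minus LSC GFP-, was -0.03 over the 76 genes, with a range from -0.35 to 0.24. In 33 genes the difference was positive and in 43 negative, a split that moved to 46 and 30 with each array scaled by its median and to 22 and 54 after quantile normalization. The 3 values of one population lay wholly above those of the other in 1 gene, Atp5a1, against 12.3% of all probes. Replicate 3 stood above the other arrays in both populations, by a median of 0.67 in these genes and 0.00 over all probes. The limma and t-test counts above, from fits without the replicate number, are therefore not on a par with their shares. The same holds for the count of genes without overlap. Fewer arrays leave less room for overlap, and this count was 3 without LSC GFP+ replicate 1 (28.5% of all probes), 2 without LSC GFP- replicate 1 (18.6%), 14 without LSC GFP+ replicate 3 (20.8%) and 7 without LSC GFP- replicate 3 (27%).

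These differences were bounded as well as small. The 95% interval of the limma fit reached at most -1.06 at its lower end and 0.98 at its upper end, and it lay within a doubling or halving, 1 on the log2 scale in either direction, for 74 of the 76 genes. Of all 36990 probes 26645 had an interval within a doubling or halving. The typical interval extended 0.68 to each side in the subunit genes and 0.58 over all probes. With the replicate number as a block it extended 0.35 in the subunit genes and 0.42 over all probes. The bounds in the subunit genes were then -0.77 and 0.60. All 76 intervals lay within a doubling or halving, as did those of 30527 of all probes.

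**Figure D1:**
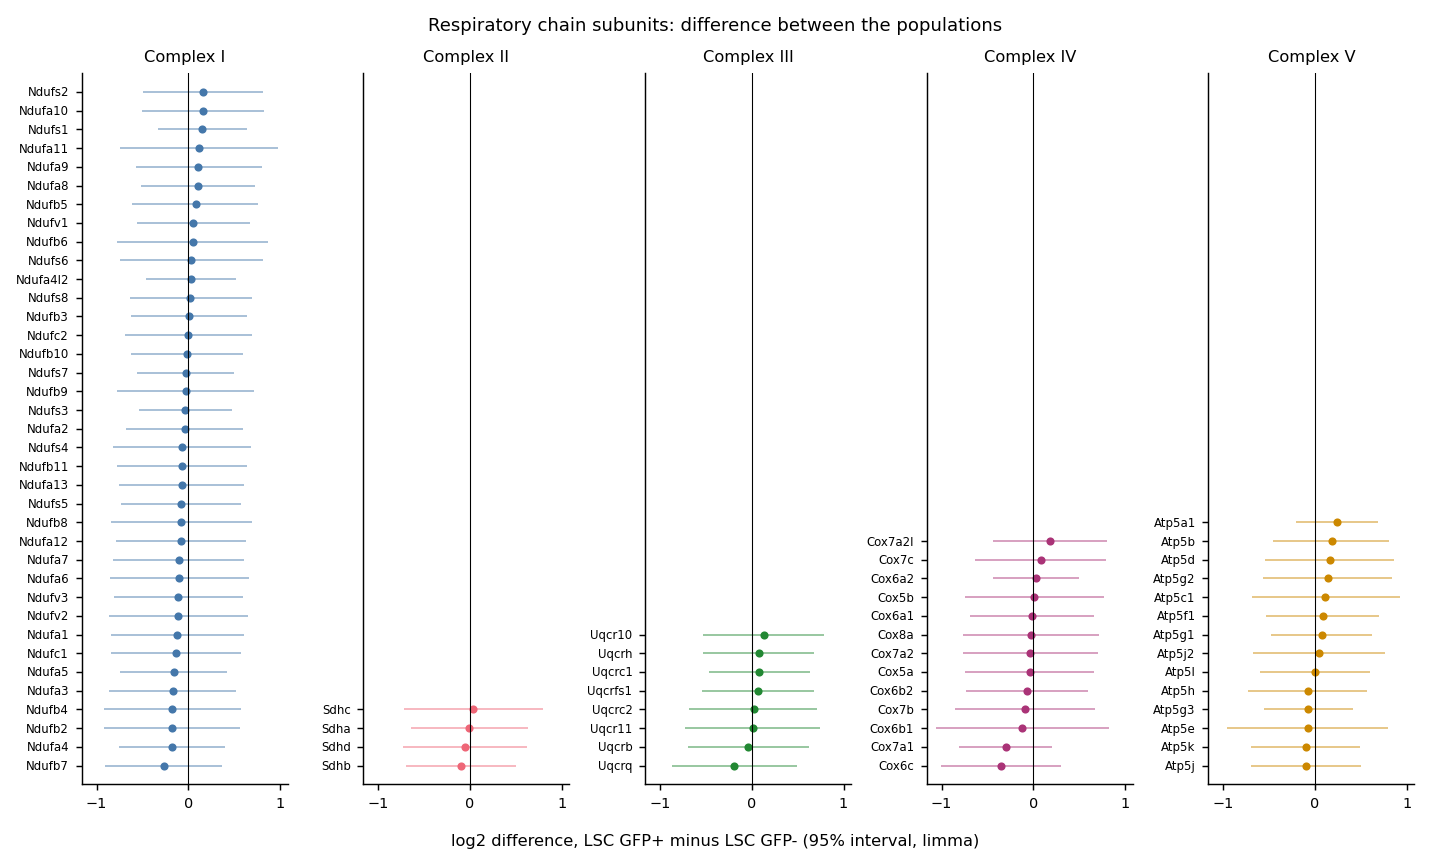
Difference between the populations for the 76 tested genes, 1 panel per complex. The horizontal axis is the log2 difference, LSC GFP+ minus LSC GFP-, points are the estimates of limma and lines their 95% intervals. Every point lies between -0.35 and 0.24, and every interval contains 0.

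By complex the medians stayed near 0. The median difference was -0.04 over the 37 genes of complex I, -0.03 over the 4 of complex II, 0.04 over the 8 of complex III, -0.04 over 13 of complex IV and 0.05 over the 14 of complex V. The medians of complexes I, II and IV turned positive with median scaling, at 0.03, 0.04 and 0.03, and that of complex III turned negative after quantile normalization, at -0.04. No complex held a gene with a p under 0.05. Genes with positive and negative differences stood side by side in each complex, with 14 and 23 in complex I, 1 and 3 in complex II, 6 and 2 in complex III, 4 and 9 in complex IV and 8 and 6 in complex V.

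In complex I, Ndufv1 encodes the subunit that binds NADH and FMN. Its signals, given here and below for replicates 1, 2 and 3 in turn, were 2.73, 2.81 and 3.25 in LSC GFP+ and 2.77, 2.54 and 3.32 in LSC GFP- cells. Ndufs1, the largest iron-sulfur subunit, had 2.14, 2.51 and 2.54 in LSC GFP+ and 2.07, 2.22 and 2.43 in LSC GFP- cells. The populations overlapped in both genes, with differences of 0.05 ± 0.27 (SE) for Ndufv1 and 0.15 ± 0.21 (SE) for Ndufs1. The lowest difference in the complex was -0.27 for Ndufb7, an accessory subunit that was picked for its value.

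Complex II has no mitochondrially encoded part. Sdha, its flavoprotein, had 2.23, 2.88 and 3.01 in LSC GFP+ and 2.48, 2.60 and 3.04 in LSC GFP- cells, a difference of -0.01 ± 0.27 (SE). Sdhb, the iron-sulfur subunit, had 0.51, 0.70 and 1.07 in LSC GFP+ and 0.69, 0.61 and 1.29 in LSC GFP- cells, a difference of -0.10 ± 0.26 (SE). In both genes the replicate 1 array was the lower in LSC GFP+ and the replicate 2 array the higher, and the ranges overlapped.

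In complex III, Uqcrc1, a core protein, had 1.99, 2.38 and 2.65 in LSC GFP+ and 2.20, 2.07 and 2.50 in LSC GFP- cells. Uqcrfs1, the Rieske iron-sulfur protein, had 3.91, 4.02 and 4.54 in LSC GFP+ and 3.87, 3.90 and 4.50 in LSC GFP- cells. Both overlapped between the populations, with differences of 0.08 ± 0.24 (SE) and 0.07 ± 0.27 (SE). For Uqcrfs1 the arrays of replicate 3 were the highest of each population.

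Several complex IV subunits exist as a general form and a form restricted to some tissues, and each pair is given with its restricted member second. Cox6a1, the general form, had 4.91, 5.17 and 5.63 in LSC GFP+ and 5.05, 4.94 and 5.75 in LSC GFP- cells. Cox6a2, known from heart and skeletal muscle, had -2.40, -2.81 and -2.44 in LSC GFP+ and -2.66, -2.43 and -2.64 in LSC GFP- cells. Neither parted the populations, with differences of -0.02 ± 0.29 (SE) and 0.03 ± 0.20 (SE).

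Cox7a2, the general form, had 3.29, 3.17 and 4.02 in LSC GFP+ and 3.32, 3.22 and 4.05 in LSC GFP- cells. Cox7a1, its partner from heart and skeletal muscle, had -0.07, -0.55 and -0.26 in LSC GFP+ and -0.18, -0.04 and 0.23 in LSC GFP- cells. For Cox7a1 the LSC GFP+ array was the higher in replicate 1 and the lower in replicates 2 and 3, and the difference was -0.30 ± 0.22 (SE), with a 95% interval from -0.81 to 0.20.

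Cox7a2l, which is related to Cox7a2 in sequence and joins complexes III and IV into supercomplexes, had 6.59, 6.66 and 7.24 in LSC GFP+ and 6.59, 6.34 and 7.03 in LSC GFP- cells, a difference of 0.18 ± 0.27 (SE). Cox6b1, a general subunit at the dimer interface, had 1.55, 1.70 and 2.66 in LSC GFP+ and 1.71, 1.70 and 2.85 in LSC GFP- cells. Cox6b2, its testis form, had 1.61, 1.98 and 2.43 in LSC GFP+ and 1.67, 2.18 and 2.38 in LSC GFP- cells. In all of these the populations overlapped, and the differences of the last pair were -0.12 ± 0.41 (SE) and -0.07 ± 0.29 (SE).

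Cox5a, Cox7b and Cox8a, general subunits, differed by -0.04, -0.09 and -0.03. The testis forms Cox7b2 and Cox8c and the muscle form Cox8b, left out of the tests, gave no signal above background on at least 5 of 6 arrays and have no fold change here. Ndufa4, counted under complex I by its name and now known as a complex IV subunit, had 4.98, 5.0 and 5.56 in LSC GFP+ and 5.24, 5.15 and 5.69 in LSC GFP- cells, a difference of -0.18 ± 0.25 (SE). Its paralog Ndufa4l2, a hypoxia-induced gene, had -3.01, -3.40 and -3.39 in LSC GFP+ and -3.08, -3.38 and -3.44 in LSC GFP- cells, a difference of 0.03 ± 0.21 (SE).

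The lowest difference of all 76 genes, -0.35 ± 0.28 (SE), belonged to Cox6c, a small nuclear-encoded subunit of complex IV that was picked for its value. Its signals were 3.90, 4.05 and 4.73 in LSC GFP+ and 4.37, 4.42 and 4.95 in LSC GFP- cells. The populations overlapped, but the LSC GFP+ array was the lower at each replicate number, with differences of -0.46, -0.37 and -0.22. With the replicate number as a block in limma, Cox6c was lower in LSC GFP+ cells (unadjusted p of 0.0486, adjusted p of 0.334), and it was the one subunit called in either direction. That fit called 8.06% of all probes lower and 6.75% higher before adjustment.

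In complex V, the catalytic core is built from the alpha and beta subunits. Atp5a1, the alpha subunit, had 6.64, 6.66 and 6.92 in LSC GFP+ and 6.52, 6.35 and 6.63 in LSC GFP- cells. All 3 LSC GFP+ values lay above all 3 LSC GFP- values, the closest being 6.64 and 6.63, and the difference of 0.24 ± 0.19 (SE) had a limma p of 0.249 and an adjusted p of 0.956. Atp5b, the beta subunit, had 3.83, 4.16 and 4.53 in LSC GFP+ and 3.83, 3.74 and 4.43 in LSC GFP- cells, with a difference of 0.18 ± 0.27 (SE).

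Subunit c, which forms the rotating ring, comes from 3 genes whose mature proteins are the same. Atp5g1 had 1.70, 1.61 and 2.10 in LSC GFP+ and 1.56, 1.56 and 2.08 in LSC GFP- cells, and Atp5g3 had 4.58, 4.74 and 5.03 in LSC GFP+ and 4.81, 4.72 and 5.05 in LSC GFP- cells. Atp5g2 had 4.78, 5.04 and 5.62 in LSC GFP+ and 4.79, 4.73 and 5.50 in LSC GFP- cells. The differences were 0.07 for Atp5g1, 0.14 for Atp5g2 and -0.08 for Atp5g3, and the populations overlapped in each.

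Comparing arrays of the same replicate number gave no common direction. The median over the 76 genes of LSC GFP+ minus LSC GFP- was -0.11 in replicate 1, with 62 genes lower, 0.09 in replicate 2, with 24 lower, and -0.04 in replicate 3, with 46 lower. Over all probes tested the same medians were 0.09, -0.08 and 0.00. The sign was the same in all 3 replicate numbers in 30.3% of the subunit genes, 16 of them lower and 7 higher in LSC GFP+, and in 38.5% of all probes.

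**Figure D2:**
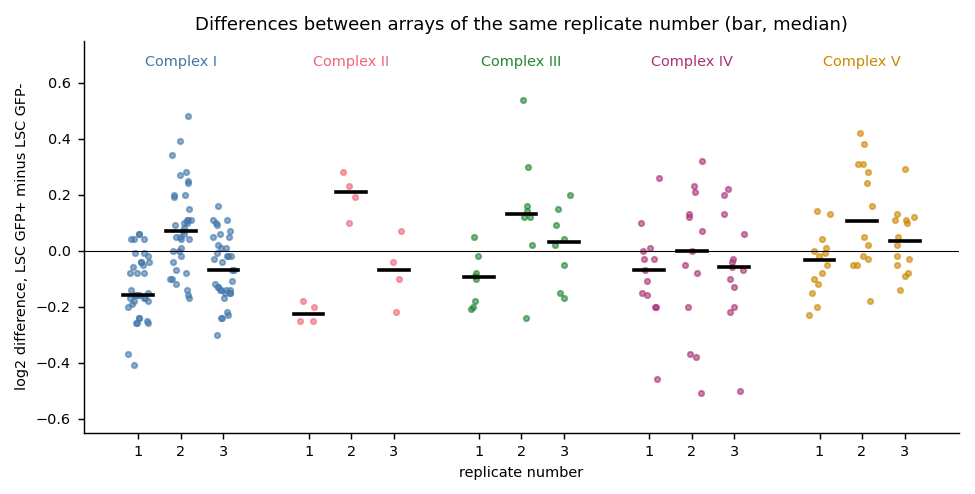
Differences between arrays of the same replicate number, by complex. Each point is 1 gene, the vertical axis is the log2 difference LSC GFP+ minus LSC GFP-, the horizontal position gives the replicate number, with a small sideways scatter, and bars are medians. In complex I the median is -0.16 in replicate 1, 0.07 in replicate 2 and -0.07 in replicate 3.

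What the subunit genes did share was a pattern over replicate numbers that was alike in both populations. The median deviation of the 76 genes from their own mean over the 6 arrays was -0.29, -0.13 and 0.42 in LSC GFP+ and -0.19, -0.25 and 0.48 in LSC GFP- replicates 1, 2 and 3. The arrays of replicate 3 were higher than the other 4 by a median of 0.67, a fold of 1.60, and the size was alike in the complexes, from 0.59 in complex V to 0.71 in complex IV. In 73 of the 76 genes the replicate 3 array was the highest of its population in both populations, as it was in 28.4% of all probes, whose median shift was 0.00.

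Across the 6 arrays, each gene was also set against the median of the 76. The correlation had a median of 0.97 and passed 0.8 in 71 genes, against 15.5% of all probes, and is given without a test because the arrays and the scaling are shared and the gene is itself part of the median. In a moderated F test of the replicate number in limma, chosen after the pattern was seen, 66 of the 76 genes had a p under 0.05, where 26.4% of all probes did. After Benjamini-Hochberg adjustment 0 of the subunits passed and 0.138% of all probes did. The lowest p, 0.00168 with an adjusted p of 0.14 by limma, belonged to Cox6b1, whose replicate 3 arrays were above the others by a mean of 1.09.

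**Figure D3:**
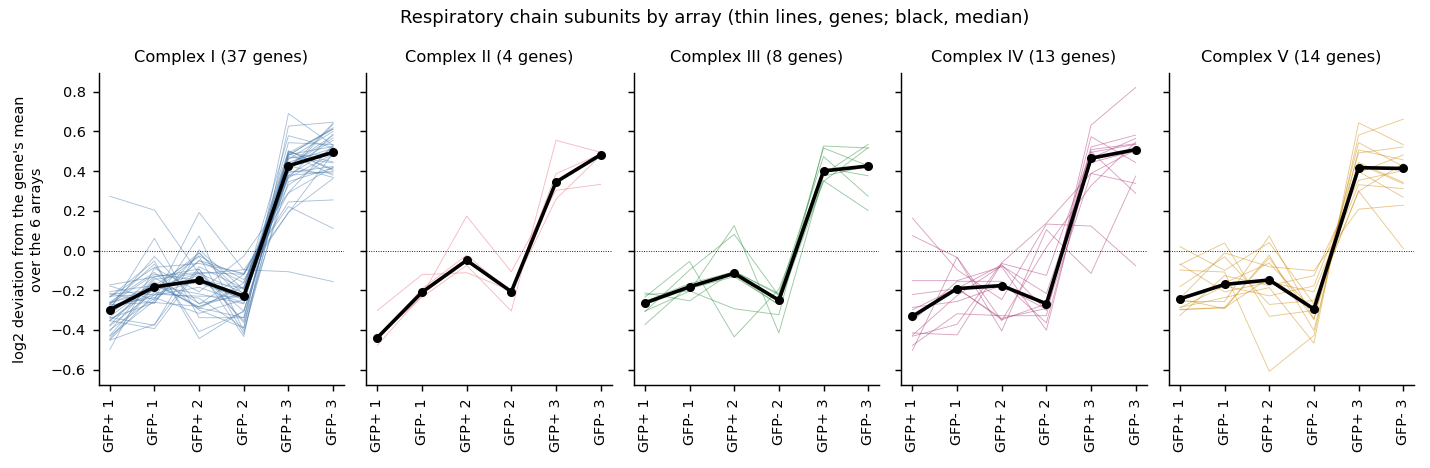
Signals of the 76 genes by array, 1 panel per complex. Thin lines are genes, the black line is the median, the vertical axis is the log2 deviation from the gene's mean over the 6 arrays and the horizontal axis gives population and replicate number. In each complex the arrays of replicate 3 lie highest, at median deviations from 0.34 to 0.51.

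The size of the shift depended on the scaling. It was 0.67 with normexp background correction, 0.43 after quantile normalization and 0.83 with arrays scaled by their median, a scaling that itself moved all probes by 0.15 between replicate 3 and the others. The F test then called 34 genes after quantile normalization and 68 with median scaling, beside 25.5% and 30.2% of all probes.

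A few subunits stood outside the pattern, as the plot of isoforms shows. Ndufa4l2, Cox6a2 and Cox7a1 correlated with the median of the 76 at -0.60, -0.06 and 0.31. Their replicate 3 arrays differed from the others by -0.19, 0.03 and 0.19. They also had the lowest mean signals of the 76, at -3.28, -2.56 and -0.15. Atp5a1 and Ndufs1 followed less closely, at 0.64 and 0.71. The general partners Ndufa4, Cox6a1 and Cox7a2 shifted by 0.53, 0.67 and 0.79. Among the restricted forms Cox6b2, with a higher mean signal of 2.04, shifted too, by 0.54. Whether low signal or tissue restriction goes with standing outside the pattern was not tested.

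**Figure D4:**
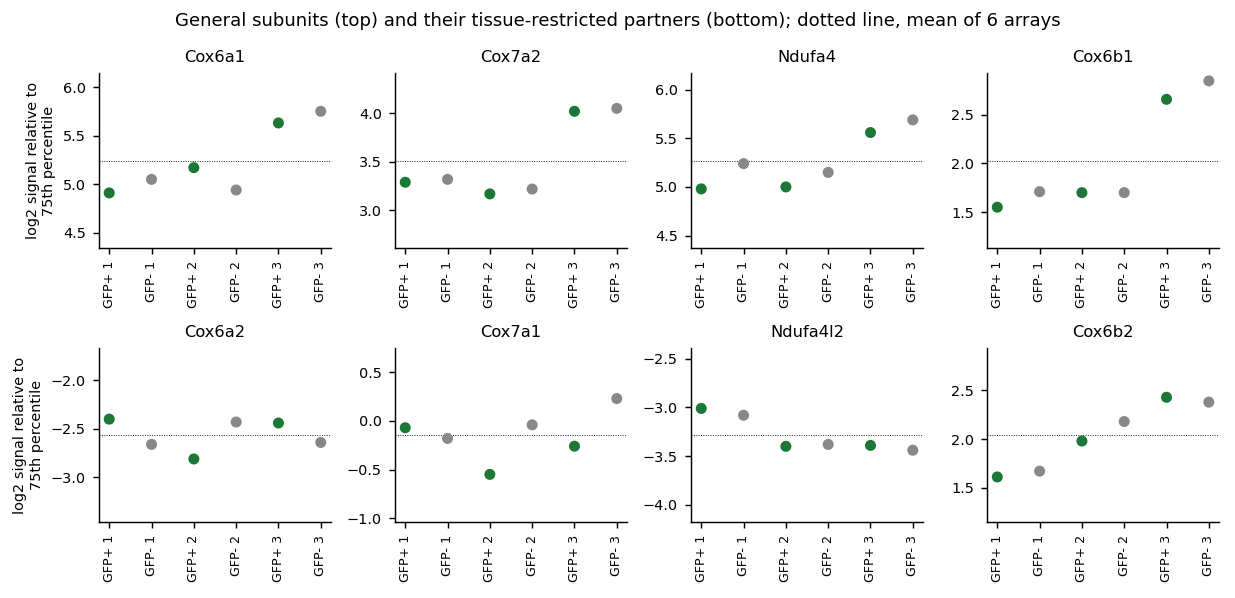
Signals of general subunits (top) and their tissue-restricted partners (bottom) on each array, with LSC GFP+ in green and LSC GFP- in grey. The vertical axis is the log2 signal relative to the array's 75th percentile and spans the same width in every panel, and the dotted line is the mean of the 6 arrays. The replicate 3 arrays are highest for Cox6a1, Cox7a2, Ndufa4, Cox6b1 and Cox6b2, and not for Cox6a2 and Ndufa4l2.

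Probes of the same gene mostly gave the same picture. Among 25 genes with several tested probes, the differences between populations lay at most 0.22 apart, in Ndufv3, and changed sign between probes in 6 genes. Cox7c, a subunit of complex IV, was the exception for the replicate pattern and was picked for it. Its brightest probe lies at chr13:86186301-86186360 of mm9 on the minus strand and had 5.28, 5.39 and 6.14 in LSC GFP+ and 5.31, 5.27 and 6.01 in LSC GFP- cells.

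The other Cox7c probes lie downstream, overlapping each other, at chr13:86184447-86184506 and chr13:86184403-86184462. The first had 0.85, 0.57 and 0.49 in LSC GFP+ and 0.77, 0.53 and 0.51 in LSC GFP- cells, and the second 0.82, 0.64 and 0.83 in LSC GFP+ and 0.79, 0.55 and 0.78 in LSC GFP- cells. Replicate 3 exceeded the other arrays by 0.76 at the upstream probe and by -0.18 and 0.11 at the downstream ones. The first 30 bases of each probe, shown because probes to the same gene differ in this way, read as follows in the order upstream, first and second downstream.
Cox7c upstream: tgtagaaaggagagttaggtggtacggcca
Cox7c downstream, first: aaagtttaagagatgatctgaaaattggat
Cox7c downstream, second: cttatactagaaaaaattgtaaataaacta

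As a description only, the promoters of the subunit genes were searched for motifs of factors known for nuclear genes of the respiratory chain. RefSeq promoters of GRCm38.p6, from 250 bases before to 50 after the gene start, were at hand for 66 of the 79 genes, 71 promoters in all. Either strand was searched for GCATGCGC (the core of the NRF1 site), CCGGAAG (GABP), AAGATGGCG (YY1) and TCAAGGTCA (ERR alpha), motifs that do not contain one another. The NRF1 core was in 10 of the 71 promoters (14.1%), against 2.71% of all 32851 promoters of the same length. GABP was in 16 (22.5%, against 8.86%), YY1 in 7 (9.86%, against 1.40%) and ERR alpha in 2 (2.82%, against 0.423%). At least 1 of the 4 was in 28 (39.4%), against 12.5%. A match describes the letters and is not a measured binding site.

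A stretch of 100 bases around the NRF1 core, in capitals, is shown for 1 gene of each complex that has the core upstream of its start and differs in its role: Ndufa11 (accessory subunit of complex I, chr17:56717656-56717755, plus strand), Sdhb (chr4:140961171-140961270, plus strand), Cox6a1 (chr5:115349067-115349166, minus strand) and Atp5g2 (chr15:102671048-102671147, minus strand), in GRCm38.p6 and written along the strand of the gene.
Ndufa11: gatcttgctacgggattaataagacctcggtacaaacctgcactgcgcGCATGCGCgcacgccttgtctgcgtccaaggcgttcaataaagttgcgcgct
Sdhb: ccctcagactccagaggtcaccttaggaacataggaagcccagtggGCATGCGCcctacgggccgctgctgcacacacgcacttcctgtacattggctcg
Cox6a1: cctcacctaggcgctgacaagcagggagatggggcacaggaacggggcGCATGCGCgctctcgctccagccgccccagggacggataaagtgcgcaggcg
Atp5g2: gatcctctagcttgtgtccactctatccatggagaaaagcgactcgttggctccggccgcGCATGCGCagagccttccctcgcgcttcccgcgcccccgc

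Replicate 3 was highest in both populations in 73 of the 76 genes, so the replicate pattern cannot set genes with the core apart. All 4 genes shown followed it. Replicate 3 exceeded the other arrays by 0.67 for Cox6a1, 0.55 for Sdhb, 0.73 for Atp5g2 and 0.96 for Ndufa11. Their differences between the populations were -0.02, -0.10, 0.14 and 0.12 in the same order. The factors of these motifs were themselves measured and did not pass, with differences of 0.20 for Nrf1, 0.23 for Gabpa, 0.25 for Yy1 and -0.16 for Esrra (ERR alpha). Of 15 regulators of mitochondrial biogenesis, which include these and factors that act on mitochondrial DNA, 12 had a positive and 3 a negative difference with a median of 0.18, and 1 had an unadjusted p under 0.05. This was Twnk, the helicase of mitochondrial DNA, which was above background on 3 LSC GFP+ and 2 LSC GFP- arrays and so entered the tests through LSC GFP+ cells alone, where it was higher, with -3.39, -3.19 and -3.24 in LSC GFP+ and -4.05, -3.70 and -3.55 in LSC GFP- cells and a p of 0.0453 by limma, or 0.613 adjusted. The populations did not overlap in it. The 15 did not share the replicate pattern, with a median shift of 0.04 and 1 gene called by the F test.

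The subunits encoded by the mitochondrial genome, 12 of which were tested, were read as the counterpart of the nuclear ones. None passed a p of 0.05 in limma or the methods' t-test. The difference was negative in all 12 and under each scaling tried, with a median of -0.30 and a range from -0.42 to -0.23, against -0.03 for the nuclear subunits. In replicates 1, 2 and 3 the median difference was -0.19, -0.42 and -0.36. At every replicate number 11 of the 12 were lower in LSC GFP+ cells. The sign was thus the same throughout in 91.7% of them, beside 38.5% of all probes. With the replicate block, which called 8.06% of all probes lower, 2 of the 12 were lower in LSC GFP+ cells. These were CYTB (cytochrome b) and ND4 (complex I), at unadjusted limma p of 0.0329 and 0.0439. Their names are given because the count is small, after their values were seen.

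CYTB had 7.10, 6.19 and 6.52 in LSC GFP+ and 7.32, 6.78 and 6.97 in LSC GFP- cells, and ND4 had 8.16, 7.85 and 7.63 in LSC GFP+ and 8.50, 8.14 and 8.03 in LSC GFP- cells. In 0 of the 12 was the replicate 3 array the highest in both populations, and the replicate 3 arrays differed from the others by a median of -0.09. This shift was 0.06 with median scaling and -0.28 after quantile normalization. These transcripts are cut from long shared precursors, so the 12 are not separate observations.

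**Figure D5:**
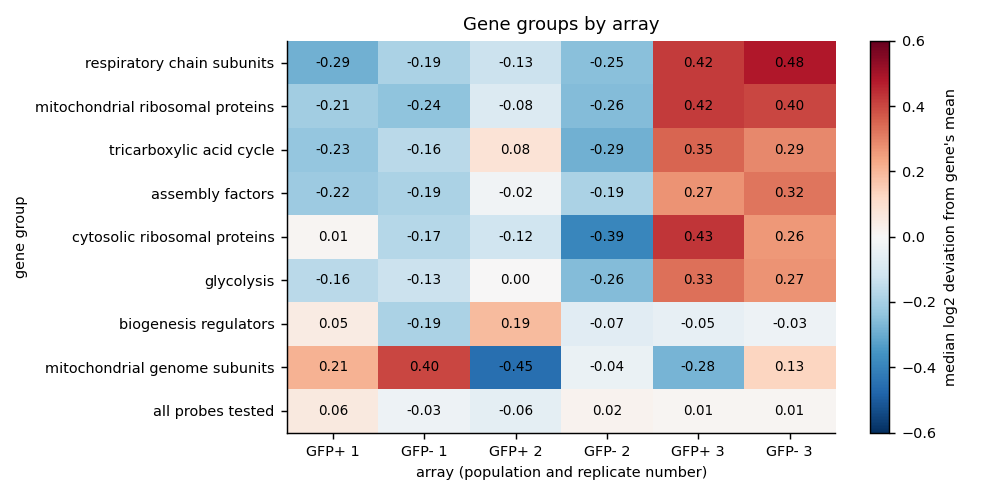
Median log2 deviation from each gene's mean over the 6 arrays, for gene groups (vertical axis) on each array (horizontal axis, population and replicate number), with the value printed in each cell and coloured from blue (low) to red (high). The replicate 3 arrays are at 0.42 and 0.48 for the respiratory chain subunits and at -0.28 and 0.13 for the subunits of the mitochondrial genome.

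Subunits and partners of the chain whose names fall outside the chosen patterns had medians close to those of the 76. The 10 tested ones include Cox4i1 (complex IV), Cyc1 (cytochrome c1) and Cycs (cytochrome c). Their median difference was -0.02 (0.05 with median scaling), their median replicate 3 shift was 0.61, and 0 passed a p of 0.05 in limma. Single shifts ran from -0.63 to 0.97, and replicate 3 was highest in both populations in 8 of the 10. Cox4i2, the hypoxia and lung form of Cox4, had -0.81, -0.66 and -1.46 in LSC GFP+ and -0.74, -0.36 and -1.08 in LSC GFP- cells, lowest in replicate 3 in both populations, while Cox4i1 had 6.25, 6.40 and 7.17 in LSC GFP+ and 6.30, 6.13 and 7.08 in LSC GFP- cells.

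Among 43 tested assembly factors of the complexes, which build but are not part of them, the median difference was -0.01. It was 0.06 with median scaling and 0.03 after quantile normalization. In limma 1 passed an unadjusted p of 0.05, higher in LSC GFP+ cells, beside 3.38% of all probes. With the replicate block 2 did, beside 6.75% of all probes, the block adding Taco1. Sco1, a copper chaperone for complex IV, had -2.26, -2.60 and -2.79 in LSC GFP+ and -3.55, -3.25 and -3.24 in LSC GFP- cells. The populations did not overlap, and the difference of 0.80 ± 0.22 (SE) had a limma p of 0.00672, adjusted 0.299. The factors shared the replicate pattern in part, with a replicate 3 shift of 0.47.

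Among the pathways that feed the chain, 0 of 16 enzymes of the tricarboxylic acid cycle passed, with a median difference of 0.12, 14 positive and 2 negative. After quantile normalization the median was 0.07, with 11 positive and 5 negative. The replicate block called 1, Idh3a, higher (unadjusted limma p of 0.0259), beside 6.75% of all probes. In replicates 1, 2 and 3 the median difference of the 16 was -0.06, 0.34 and 0.03. At every replicate number 5 of the 16 were higher in LSC GFP+ cells and 0 were lower. The sign was thus the same throughout in 31.2% of them, beside 38.5% of all probes. Of 20 glycolytic genes 1 passed, with a median of 0.04 over the 20 that became -0.02 after quantile normalization. This was Hk2, the inducible hexokinase, higher in LSC GFP+ cells, with 2.31, 2.38 and 2.06 in LSC GFP+ and 1.73, 1.62 and 1.25 in LSC GFP- cells, a difference of 0.72 ± 0.21 (SE) at a limma p of 0.0103, adjusted 0.348. With the replicate block 5 of the 20 glycolytic genes passed an unadjusted p of 0.05 in limma, beside 14.8% of all probes. Hk2 and Aldoc were higher, and Ldhb, Eno2 and the lactate transporter gene Slc16a3 were lower, by 0.57, 0.87 and 0.53 on the log2 scale, at limma p of 0.00976, 0.0161 and 0.0272.

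Of 13 hypoxia-response genes 2 passed an unadjusted p of 0.05 in limma, both higher in LSC GFP+ cells, beside 3.38% of all probes. Over the 13 the median difference was 0.14, with 9 positive and 4 negative. Pdk1, a kinase that keeps pyruvate out of the cycle, had -0.64, -0.49 and -0.16 in LSC GFP+ and -1.09, -1.10 and -0.92 in LSC GFP- cells, a difference of 0.61 ± 0.21 (SE). Adm, the vasoactive peptide adrenomedullin, had 1.26, 1.61 and 1.53 in LSC GFP+ and 0.23, 0.25 and 0.56 in LSC GFP- cells, a difference of 1.12 ± 0.20 (SE). The populations did not overlap in either, and the limma p were 0.019 and 0.00061, adjusted 0.443 and 0.128.

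Both kinds of ribosomal protein genes shared the replicate pattern of the respiratory chain. The replicate 3 shift was 0.63 over 77 mitochondrial and 0.53 over 78 cytosolic ribosomal proteins, 0.50 over the tricarboxylic acid cycle and 0.39 over glycolysis. The difference between the populations had a median of 0.06 over the mitochondrial and 0.22 over the cytosolic ribosomal proteins. These medians were 0.13 and 0.29 with median scaling and 0.04 and 0.10 after quantile normalization. Of the mitochondrial ones 1 had a limma p under 0.05 (Mrpl37, named after its value was seen), or 4 with the replicate block, all higher. Of the cytosolic ones 0 had, or 3 higher and 1 lower with the block. The block fit called 6.75% of all probes higher and 8.06% lower.

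Markers of cell types bear on what the sorted cells contained, since in bulk RNA fewer cells of a type and less RNA per cell cannot be told apart. Markers were called at an unadjusted limma p under 0.05, and 0 of the basal, stromal and muscle markers passed after adjustment. Basal markers were well above background on all 6 arrays, and 4 of the 8 were higher in LSC GFP+ cells: Krt5, Krt14, Krt15 and Krt17, by 0.70, 1.18, 0.52 and 1.40, at limma adjusted p of 0.451, 0.135, 0.53 and 0.101. The sorting markers Itga6 (CD49f) and Ly6a (Sca-1) differed by 0.25 and -0.36 and did not pass. Of the luminal markers, Hoxb13, a homeobox factor of the prostate, was higher by 0.80 (limma adjusted p of 0.328), while the keratins Krt8 and Krt18 differed by -0.30 and -0.22 and did not pass.

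Of 8 stromal markers 5 were lower in LSC GFP+ cells and 2 were higher. They had a median difference of -1.59, or -1.04 with normexp, and median levels of 0.50 to 0.96 on the LSC GFP+ and 1.11 to 2.01 on the LSC GFP- arrays. Col1a1 and Col1a2, collagen chains, were lower by 2.18 and 2.15 on the log2 scale, and Dcn, a proteoglycan, was higher by 1.19, at limma adjusted p of 0.106, 0.139 and 0.202. Pdgfra, one of the 5, was above background on 2 LSC GFP+ and 3 LSC GFP- arrays. Of 10 tested smooth muscle and pericyte markers 8 were lower, with median levels of -0.92 to -0.29 in LSC GFP+ and 0.13 to 0.73 in LSC GFP- cells, and Abcc9 and Kcnj8 were above background on 1 and 3 of 6 arrays. Of 8 tested striated muscle markers 5 were lower, with median levels of -2.75 to -2.03 in LSC GFP+ and -1.89 to -1.42 in LSC GFP- cells, and Mylpf was above background on no array and Ckm on 3 of 6. Of the 5, Actc1 and Myh3 were above background on 1 LSC GFP+ and 3 LSC GFP- arrays, so they entered the tests through LSC GFP- cells alone and their LSC GFP+ levels are near background.

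Endothelial, leukocyte, glial and neuronal, and erythroid markers gave 0 calls at a limma p under 0.05. With the replicate block, which called 8.06% of all probes lower, 2 were lower in LSC GFP+ cells. These were the neuronal Tubb3 and the glial Sox10, named after their values were seen. Among the 3 tested erythroid markers, Hba-a1 and Hba-a2, near-identical alpha globin genes, were highest in replicate 3 in both populations, with replicate 3 shifts of 1.98 and 1.85. Hba-a2 had -2.44, -1.31 and 0.24 in LSC GFP+ and -1.88, -1.76 and -0.23 in LSC GFP- cells. Alas2, the erythroid enzyme of heme synthesis, had -2.29, -1.50 and -1.98 in LSC GFP+ and -2.05, -1.42 and -1.49 in LSC GFP- cells, highest in replicate 2, with a shift of 0.08. The part of any of these cell types in the respiratory chain values or in their replicate pattern was not tested.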

How the data were processed

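Per the file headers, the deposited intensity values are Cy3 signals on the linear scale that the authors obtained with Feature Extraction 11.0.1.1 (10.7.3.1 per the labels), with background subtracted, a spatial trend removed and no normalization between arrays. Processed signals were turned into log2 values and centred on each array's 75th percentile. Between 123 and 154 outlier spots per array were dropped and spots of 1 probe averaged. Tests kept probes well above background on every array of a population, less 15 probes with a missing value. The fit was that of limma 3.58.1 (lmFit, eBayes; R 4.3.3) without covariates, two-sided, adjusted by Benjamini-Hochberg over all 36990 probes, and was tested on simulated data. The study's methods name Student's t-test, run here on the same values as the methods' t-test. Nothing shows how many animals gave a sample, so p-values measure the spread between these 3 samples per population, and 6 arrays limit the precision.

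Replicate numbers come from the labels. Deviations of same-numbered arrays from their population means correlated at 0.433, 0.277 and 0.668, which meets the rule for pairing (each above 0.1). Among arrays of different numbers, LSC GFP+ replicate 1 and LSC GFP- replicate 2 also passed that limit, at 0.223. The rest were negative. The block was an alternative because the methods name no pairing. Names came from the array design and, for 26582 probes, from RefSeq accessions (GRCm38.p6). Probe positions are those of the design (mm9), which places 2 of 3 Atp5k probes on chromosome Y and the brightest Cox5b probe on chromosome 15, where it matched no RefSeq accession. Genes and lists were chosen with earlier results of these data known. Cytosolic ribosomal proteins were taken by name (Rpl, Rps), and kinases and pseudogenes of that name were left out after seeing the data. Genes named are tissue-restricted isoforms and partners, core subunits, subunits with the smallest p under 0.05 (none), and list members past that p. Part of the luminal marker list is not reported here. Genes called with the replicate block alone, and markers near background, were named after their values were seen. Others were picked for their values, as marked, or stand as examples of a list. Alternatives were normexp with an offset of 50, quantile and median scaling, the rounded series table, 3 other filters on background, an intensity trend, the methods' t-test, the replicate block, means over probes and each array left out. Leaving out both replicate 3 arrays, and the F test of replicate number under other scalings, were added after seeing the data.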

Additional observations from a re-analysis of the deposited data

How the results depend on the processing

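The counts of subunits higher and lower in LSC GFP+ cells stayed at 0 under all alternatives but the replicate block, where 1 was lower, Cox6c at -0.35. The block changed no other subunit's call. The median difference over the 76 genes ran from -0.24 to 0.21 and by complex from -0.28 to 0.26. The range over the 76 was wider than the medians of -0.11, 0.09 and -0.04 within replicates 1, 2 and 3. The count of genes without overlap, 1, became 3 after quantile normalization (13.5% of all probes), 0 with median scaling (11.6%), 20 without both replicate 3 arrays, where 2 arrays per population remain (35.7%), and 1 to 14 with single arrays left out, the highest without LSC GFP+ replicate 3 (20.8%). The F test of replicate number called 34 after quantile normalization.

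Small differences that were past no threshold changed sign. Normexp gave 0.011 for Cox6a1 and -0.10 for Cox6a2. Median scaling gave 0.054 for Cox6a1, 0.032 for Cox7a2, 0.039 for Cox8a, 0.064 for Sdha and 0.027 for Cox5a. Without both replicate 3 arrays the values were 0.040 for Cox6a1, -0.059 for Cox6a2, 0.007 for Cox8a and 0.011 for Sdha. The mean over probes gave 0.017 for Cox8a.

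With single arrays left out, differences ran from -0.21 to 0.24 for Cox6a1, -0.048 to 0.16 for Cox6a2, -0.30 to 0.22 for Cox7a2, -0.028 to 0.36 for Cox7a2l, -0.37 to 0.19 for Cox7b, -0.27 to 0.25 for Cox8a, -0.46 to 0.26 for Cox6b1, -0.28 to 0.13 for Cox6b2 and -0.27 to 0.20 for Cox5a. They ran from -0.096 to 0.14 for Ndufa4l2, -0.12 to 0.28 for Ndufv1, -0.16 to 0.23 for Sdha, -0.26 to 0.11 for Sdhb, -0.075 to 0.26 for Uqcrc1 and -0.12 to 0.27 for Uqcrfs1. In complex V they ran from -0.002 to 0.39 for Atp5b, -0.080 to 0.24 for Atp5g1, -0.097 to 0.39 for Atp5g2 and -0.20 to 0.022 for Atp5g3. The cause of these changes was not tested.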
